A study of Homo sapiens with 2 samples.

Results

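SH-SY5Y is a human neuroblastoma cell line of sympathetic neuroblast character. Of 2879 cells sequenced from 2 flasks of this line, 2784 could be assigned to a flask. Of these, 540 carried 30% or more of their gene UMIs (unique molecular identifiers, which count captured RNA molecules) on the 13 protein-coding mitochondrial genes, and these mito-high cells are described here. They made up 19.4% of the assigned cells, with an exact 95% binomial interval of 17.9% to 20.9%. They were compared with 1920 comparison cells of the same flasks, which had less than 15% mitochondrial UMIs and at least 1000 genes detected. Both classes were chosen by the mitochondrial share of the UMIs of each cell. That share, and the low number of nuclear-encoded UMIs that comes with it, are therefore given as a description.

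The cells of 1 culture were divided over 2 flasks, SplitA and SplitB, and grown untreated in high-glucose DMEM with serum until harvest. Each flask was stained with a hashtag antibody carrying its own DNA barcode, and the flasks were then pooled and captured together with 10X Genomics 3' chemistry, so that 1 mRNA library holds both flasks. The flasks serve as replicate 1 (SplitA) and replicate 2 (SplitB), and since they come from 1 culture, differences between them may be technical. Neither the genotype nor the treatment differed between the flasks, and both classes of cells were present in each.

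Transcripts of the mitochondrial genome are made and kept inside the organelle, behind its own membranes, whereas mRNAs of nuclear genes are translated in the cytosol, either free or bound to the endoplasmic reticulum. RNAs such as MALAT1 and NEAT1 stay in the nucleus. Cells like the mito-high cells are left out of a single-cell data set where an upper limit lies below their mitochondrial share as computed there.

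The barcodes that gave each cell its flask are shown first because every comparison rests on them. Each is 15 bases long and is written 5′ to 3′ in lower case, with nothing in capitals.
Hashtag-1: gtcaactctttagcg
Hashtag-2: tgatggcctattggg
Cells carrying Hashtag-1 are those of SplitA and cells carrying Hashtag-2 those of SplitB. A cell was assigned when the count of 1 hashtag was at least 3 times that of the other and the other did not exceed the fixed limit given with the processing. The remaining 95 cells were multiplets and were left out, and 16 of them had 30% or more mitochondrial UMIs. No doublet caller was run on the assigned cells, so doublets within a flask were not removed. All 2879 barcodes are of 1 library and none occurs more than once.

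In SplitA, 193 of 1179 cells were mito-high (16.4%, exact binomial interval 14.3% to 18.6%). In SplitB, 347 of 1605 cells were mito-high (21.6%, interval 19.6% to 23.7%). The intervals of the flasks do not overlap, but they cover counting error only and no test between 1 flask and 1 flask is possible. The comparison cells numbered 829 in SplitA and 1091 in SplitB. Between the classes lay 139 cells of SplitA and 128 cells of SplitB with 15% to 30% mitochondrial UMIs, and 18 and 39 cells had less than 15% but fewer than 1000 genes.

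The mito-high and comparison cells differed far more in their median number of nuclear-encoded UMIs than in their median number of mitochondrial UMIs, and the rule that chose the cells used both. The median number of mitochondrial UMIs was 563 per mito-high cell and 528 per comparison cell in SplitA, and 592 and 557 in SplitB. The median number of nuclear-encoded UMIs was 946 per mito-high cell against 5816 per comparison cell in SplitA, and 894 against 6036 in SplitB, which is 6.15 and 6.75 times fewer. In both flasks 100% of the mito-high cells were below the 5th percentile of the comparison cells in nuclear-encoded UMIs, while 2.07% and 4.03% of them were below that percentile in mitochondrial UMIs. Whether a mito-high cell had lost cytosolic RNA or had held less of it from the start cannot be told apart in a single harvest.

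**Figure D1:**
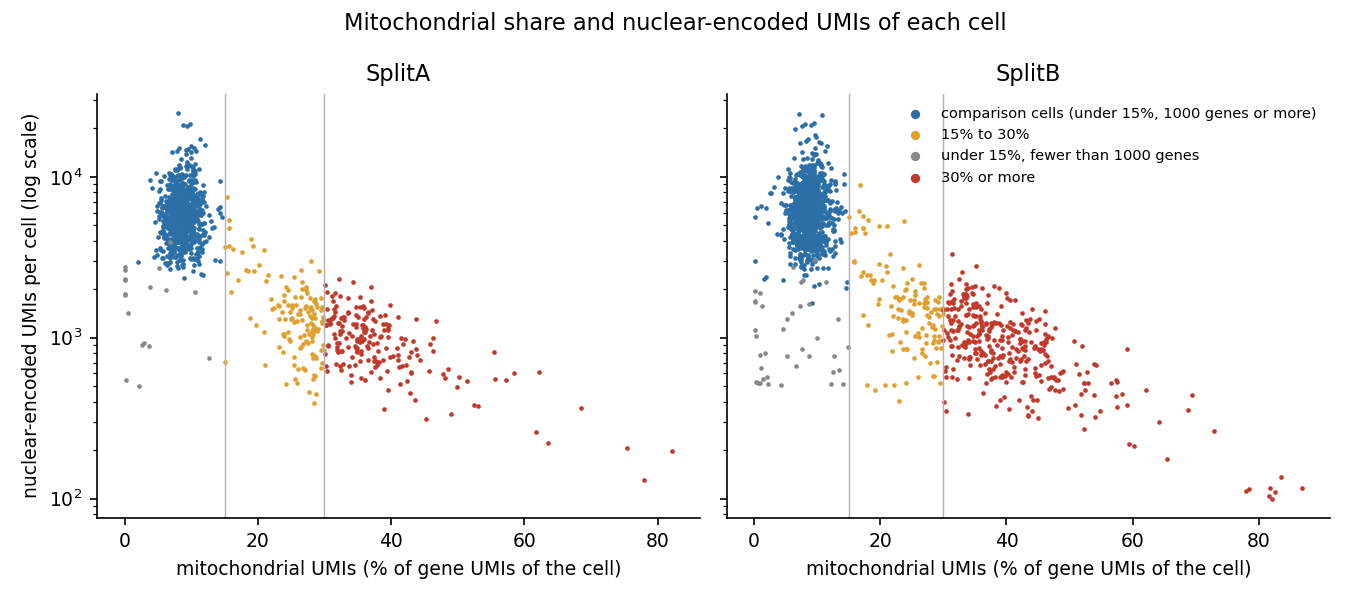
Each point is a cell, with its mitochondrial share of gene UMIs in percent on the horizontal axis and its nuclear-encoded UMIs on a logarithmic vertical axis, 1 panel per flask. Mito-high cells are red, comparison cells blue, cells of 15% to 30% yellow and cells under 15% with fewer than 1000 genes grey; vertical lines mark 15% and 30%. Comparison cells form a compact cloud, and the cells on the right form a second cloud that runs on across the 30% line without a gap.

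The mitochondrial share ran from 30.1% to 82.2% in the mito-high cells of SplitA, with a median of 36.1%, and from 30.0% to 86.9% in those of SplitB, with a median of 38.9%. The limit of 30% falls inside a continuous group of cells. The 15 cells of SplitA just inside it, at 30% to 31%, had a median of 1210 nuclear-encoded UMIs, and the 16 cells just outside it, at 29% to 30%, had 1264. In SplitB the 15 cells just inside had 1071 and the 13 just outside had 1360. The sparse region lay lower, since only 18 cells of SplitA and 28 of SplitB had a share of 15% to 20%.

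The hashtag antibody binds to the cell surface, and its barcode is captured in the same droplet as the mRNA. The median count of a cell's own hashtag was 757 in mito-high and 1073 in comparison cells of SplitA, and 705 and 1058 in SplitB, or 0.705 and 0.666 times the comparison value. The hashtag of the other flask, whose count the assignment rule limits, had medians of 66 and 70 counts in SplitA and 19 and 20 in SplitB. The mito-high cells thus held 6.15 to 6.75 times fewer nuclear-encoded UMIs and 1.4 to 1.5 times fewer counts of their own hashtag. The part of free RNA in the UMIs of either class was not tested.

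Transcripts used as markers of the class are given next in UMIs per cell. The mitochondrial ones are part of the UMIs by which the cells were chosen, so their values are a description. MT-CO1, a catalytic subunit of cytochrome c oxidase, had a mean of 81.5 UMIs per mito-high cell and 78.0 per comparison cell in SplitA, and 87.4 and 82.1 in SplitB. MT-CO2, another core subunit of that enzyme, had 112 and 119 in SplitA and 116 and 125 in SplitB. MT-ND3, a subunit of complex I, had 34.9 and 24.6 in SplitA and 36.3 and 25.5 in SplitB. MALAT1, the nuclear long non-coding RNA, had 45.1 UMIs per mito-high cell in either flask against 93.8 and 94.1 per comparison cell. By these counts the mitochondrial markers were near or above their level in the comparison cells, and MALAT1 was at 0.481 and 0.479 times its level while the median nuclear-encoded total was at 0.163 and 0.148 times.

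Transcripts that mark the line as sympathetic neuroblasts were present in the mito-high cells. Of 16 genes of sympathetic neuroblast identity, 13 reached the expression floor used below, 5 were higher in mito-high cells and none was lower, where 46.2% of all genes compared were higher and 23.8% lower. With that floor set on comparison cells alone the counts were the same, where 22.5% of all genes were higher and 37.8% lower. Relative to the median ratio of all genes 2 were higher and none lower. PHOX2A, a homeodomain factor of sympathetic neurons, was at 1203 and 1092 counts per 1000000 nuclear-encoded UMIs (CPM) in the mito-high cells of SplitA and SplitB, against 744 and 727 CPM in comparison cells. GATA2 was at 727 and 724 CPM against 510 and 487. HAND2, of the same regulatory circuit, was at 272 and 335 CPM against 349 and 351. CHGA, which encodes the granin of secretory vesicles, was far higher, at 3855 and 3585 CPM against 416 and 375. TH, the enzyme of the first step of catecholamine synthesis, was near 0 in both classes, with no UMI in mito-high cells of either flask and 9 UMIs in the comparison cells of each, too few for a comparison.

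Relative levels were compared within the nuclear-encoded RNA alone, so that the mitochondrial share does not enter. UMIs were summed over the cells of a class in each flask, giving 191158 nuclear-encoded UMIs in mito-high cells of SplitA, 334136 in those of SplitB, 5152809 in comparison cells of SplitA and 7052218 in those of SplitB. A total of 1498 nuclear-encoded genes had a mean of at least 100 CPM over these 4 sums. A gene was called higher or lower when its CPM differed by 1.5-fold or more in the same direction in both flasks. No p-value is given, because the classes were cut from the RNA of the same cells.

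By this rule 692 genes were higher in mito-high cells (46.2% of those compared) and 356 were lower (23.8%). The log2 ratios of the flasks had a Pearson correlation of 0.973 across the 1498 genes, which are not independent replicates, and no gene was past 1.5-fold in opposite directions. The median log2 ratio over all genes was 0.55 in SplitA and 0.51 in SplitB, so the calls were also made relative to that shift, which is termed centred below. Centred, 503 genes were higher (33.6%) and 534 lower (35.6%). The floor also matters, since 437 of the 692 higher genes were below 100 CPM in comparison cells and passed only through the mito-high cells. With the floor set on comparison cells alone, 255 of 1132 genes were higher (22.5%) and 428 were lower (37.8%), and the median log2 ratio was -0.41 in SplitA and -0.37 in SplitB. The counts of each gene list below are therefore given on both floors and centred, to be read against these shares for all genes.

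The mRNAs of cytosolic ribosomal proteins, the structural proteins of the ribosome, were the main group that was lower. Of 79 such genes all were compared, 75 were lower and none was higher, on either floor, and 78 were lower centred. Together they took 14.08% and 14.02% of the nuclear-encoded UMIs of mito-high cells against 41.1% in the comparison cells of either flask. The median log2 ratio of the group was -1.63 in SplitA and -1.61 in SplitB. Counted per cell, a mito-high cell held on average 139 and 135 ribosomal protein UMIs where a comparison cell held 2555 and 2657, which is 18.3 and 19.7 times fewer.

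RPS27 was the most abundant of them in comparison cells, at 14220 CPM in SplitA and 14264 CPM in SplitB, and was at 2438 CPM (exact Poisson interval 2221 to 2669) and 2544 CPM (2376 to 2721) in mito-high cells. Its level was 5.83 and 5.61 times lower in the respective flask. RPL39 (ENSG00000198918, GRCh38 chrX:119786504-119791630) was at 1590 and 1622 CPM in mito-high cells against 8078 and 8240 CPM. RPS29 (ENSG00000213741, GRCh38 chr14:49570984-49599164) was at 931 and 949 CPM against 5079 and 5165. RPS12 and RPS28 were likewise among the 12 most lowered genes of all. RPS21 stood apart from the group, at 3494 and 3825 CPM in mito-high cells against 2903 and 2988. Many ribosomal protein genes have processed pseudogenes of nearly the same sequence, and the counting may have lost or shared reads among them.

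RPL39 and RPS29 are shown because their coding sequences are among the shorter ones compared and both genes are among the 12 most lowered. The coding sequences are those of the GENCODE 44 canonical transcripts, 5′ to 3′, with 156 and 171 bases, and capitals mark the start and the stop codon.
RPL39: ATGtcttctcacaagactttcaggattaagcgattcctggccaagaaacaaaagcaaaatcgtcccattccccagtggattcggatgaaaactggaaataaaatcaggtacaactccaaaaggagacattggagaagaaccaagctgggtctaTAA
RPS29: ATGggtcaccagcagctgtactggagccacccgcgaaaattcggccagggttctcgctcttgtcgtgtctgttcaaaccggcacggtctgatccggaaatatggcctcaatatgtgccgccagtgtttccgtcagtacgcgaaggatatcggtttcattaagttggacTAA
The whole coding part of either mRNA is far shorter than that of HSPA5, the gene with the highest rank at the other end, which has 1965 bases.

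Other mRNAs with short coding sequences were lower too. The gene ranked first among them was H4C3, one of several similar genes for the core histone H4, between which reads may be shared, at 167 CPM (interval 115 to 236) and 138 CPM (100.8 to 184) in mito-high cells against 2695 and 2736 CPM, or 16.1 and 19.9 times lower. CTXN1, a small membrane protein of neurons, had only 1 and 5 UMIs in the mito-high cells of SplitA and SplitB, against 197 and 200 CPM in comparison cells. PPP1R14B, an inhibitor of protein phosphatase 1, was at 99.4 and 123 CPM against 922 and 961. BRI3, SH3BGRL3 and PPDPF, with coding sequences of 378, 282 and 345 bases, were also among the 12. CTDNEP1 was another of the 12, and its coding sequence of 735 bases is not among the short ones. In each of these genes the mito-high cells of both flasks lay below the comparison cells of both flasks.

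The 12 genes with the highest ratios encode proteins of several compartments. All of them except PCOLCE and HSP90B1 were below 100 CPM in comparison cells and reached the floor only through the mito-high cells. HSPA5 (BiP, the main Hsp70 chaperone of the endoplasmic reticulum; ENSG00000044574, GRCh38 chr9:125234853-125241382) was at 1140 CPM (interval 994 to 1302) and 1167 CPM (1054 to 1289) in mito-high cells against 53.8 and 57 CPM, a ratio of 21.2 and 20.5. PCOLCE, a secreted enhancer of procollagen processing, was at 2464 and 2463 CPM against 150 and 139. PDIA3, a disulfide isomerase of the endoplasmic reticulum, was at 874 and 787 CPM against 46.8 and 55.9. HSP90B1, the Hsp90 of the same compartment, was at 1250 and 1305 CPM against 103 and 113. SLC3A2, CPXM1 and LGALS3BP, all of which encode membrane or secreted proteins, are also among the 12 genes with the highest ratios.

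Another 4 of the 12 encode proteins that are not made at the endoplasmic reticulum. TUBB4B, a beta-tubulin, was at 1256 and 1194 CPM in mito-high cells against 90.2 and 95.6. FH, the fumarase of the citric acid cycle, was at 183 and 192 CPM against 14.7 and 14.9. ASNS, which makes asparagine, was at 230 and 156 CPM against 8.93 and 12.6, and GNL2, a nucleolar GTPase, was at 209 and 201 CPM against 16.7 and 12.8. The coding length was 1338 bases for TUBB4B, 1533 for FH, 1686 for ASNS and 2196 for GNL2.

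Coding length was the transcript feature that went furthest with the ratio. It was taken up after the first values had been seen, so the relation is a description. Across the 1482 protein-coding genes compared, Spearman's rho between coding length and log2 ratio was 0.72 in SplitA and 0.73 in SplitB. The genes were then divided into 5 groups of nearly equal size by coding length. The genes up to 429 bases had a median log2 ratio of -1.04 in SplitA and -1.0 in SplitB, and 195 of 297 were lower. Those of 432 to 666 bases were at -0.26 and -0.30, those of 666 to 1071 bases at 0.78 and 0.76, and those of 1071 to 1758 bases at 1.62 and 1.52. The longest group, from 1761 bases, was at 1.57 and 1.67, with 259 of 297 genes higher and 5 lower, so the medians of the 2 longest groups were close to each other. The median coding length was 1440 bases for the higher genes and 400.5 for the lower ones, against 840 for all. On the floor of comparison cells the medians were 1254 bases for the higher and 393 for the lower genes. There the shortest of 5 groups, up to 357 bases, was at -1.26 and -1.15, with 171 of 224 genes lower and 2 higher, and the longest, from 1152 bases, was at 1.05 and 0.98, with 137 of 223 higher and 14 lower.

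**Figure D2:**
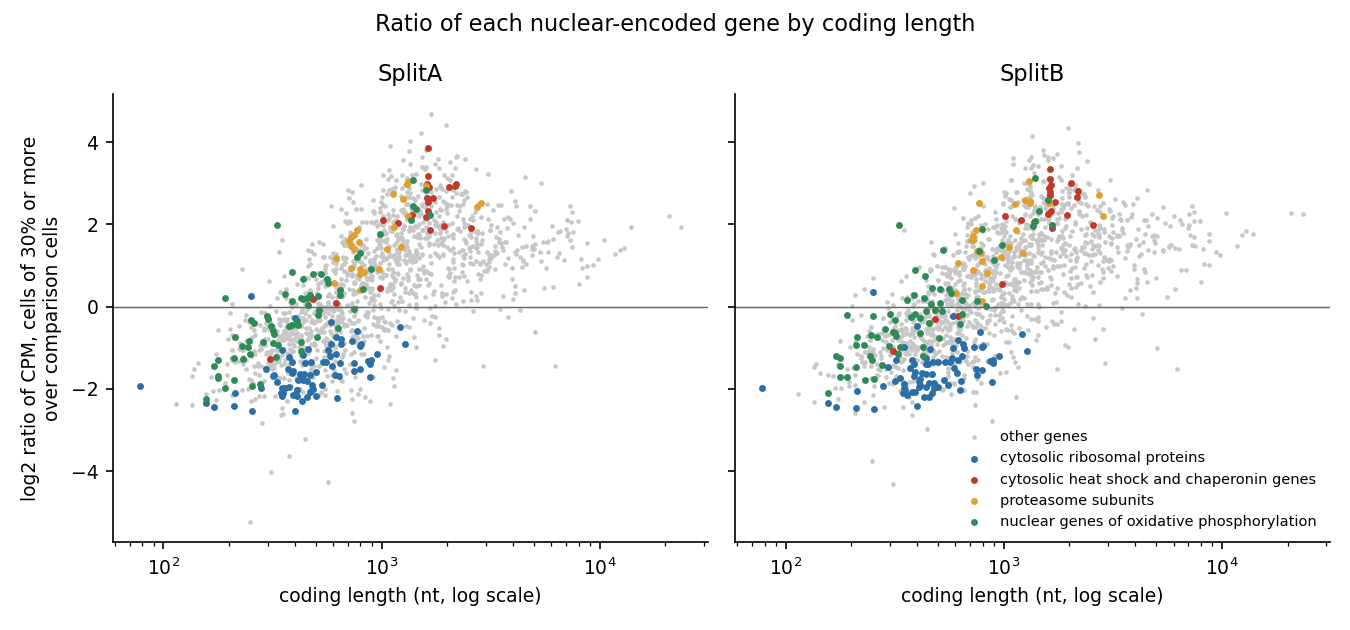
Each point is a nuclear-encoded protein-coding gene, with its coding length in nucleotides on a logarithmic horizontal axis and its log2 ratio of CPM, mito-high over comparison cells, on the vertical axis, 1 panel per flask. Ribosomal protein genes are blue, heat shock and chaperonin genes red, proteasome subunits yellow and oxidative phosphorylation genes green; the cloud climbs from short to long coding sequences and flattens above about 1 kb, and the blue points lie below other genes of the same length.

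The relation did not rest on the ribosomal protein genes, since without them rho was 0.70 and 0.72 over 1403 genes. On the mean log2 ratio of both flasks, rho was 0.63 with the floor on comparison cells and 0.65 with the floor on mito-high cells. Abundance goes with length in these cells, since in comparison cells rho between coding length and CPM was -0.63 in either flask, against 0.10 in mito-high cells. Genes of like abundance were therefore compared, with the level taken from the comparison cells of the other flask. Among 442 genes of 100 to 200 CPM, rho in SplitA was 0.59, and the 69 genes of up to 450 coding bases had a median log2 ratio of -0.65 where the 94 genes of 1500 bases or more had 1.27. In SplitB the corresponding 444 genes gave 0.60, with medians of -0.80 and 1.14. Above 500 CPM rho was 0.38 and 0.36, with only 5 genes of 1500 bases or more.

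Other features of the transcript went less far. The length of the 3' UTR, where the 3' chemistry primes, had a rho of 0.12 and 0.13 with the ratio, and GC content -0.08 and -0.10. The length of the whole transcript had 0.45 and 0.46, and after subtraction of the median of genes of similar coding length -0.03 and -0.04. The hydropathy of the protein start, which is high where a signal peptide or an early transmembrane segment is present, had 0.13 and 0.11, and 0.17 and 0.16 after that subtraction. The lengths are those of annotated canonical transcripts, and the isoforms present in the cells were not resolved.

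The same shift could be seen cell by cell. Genes with a coding length of up to 450 bases took a median of 14.9% of the nuclear-encoded UMIs of a mito-high cell in SplitA and 15.4% in SplitB, against 36.7% and 37.0% in comparison cells. Genes of 1500 bases or more took 29.2% and 29.8% against 11.3% in either flask. Of the mito-high cells, 98.4% in SplitA and 95.1% in SplitB were above the 95th percentile of comparison cells in the share of long coding sequences. In UMIs per cell, the short group was 15.2 and 15.9 times lower in mito-high cells and the long group 2.47 and 2.61 times lower.

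The makeup changed at a lower mitochondrial share than the limit of 30%. Up to 15%, ribosomal protein genes held 39.3% to 41.3% of the nuclear-encoded UMIs in every bin of both flasks. In the 15% to 20% bin they held 23.0% in SplitA and 28.6% in SplitB, with 18 and 28 cells behind these values. At 25% to 30% they held 15.3% and 13.9%, against 14.1% and 13.5% at 30% to 35%, so the cells just below the limit had a makeup close to that of the mito-high cells above it. Above 50%, in 15 and 42 cells with medians of 380 and 407 nuclear-encoded UMIs, the share was again larger, at 18.5% and 20.96%.

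**Figure D3:**
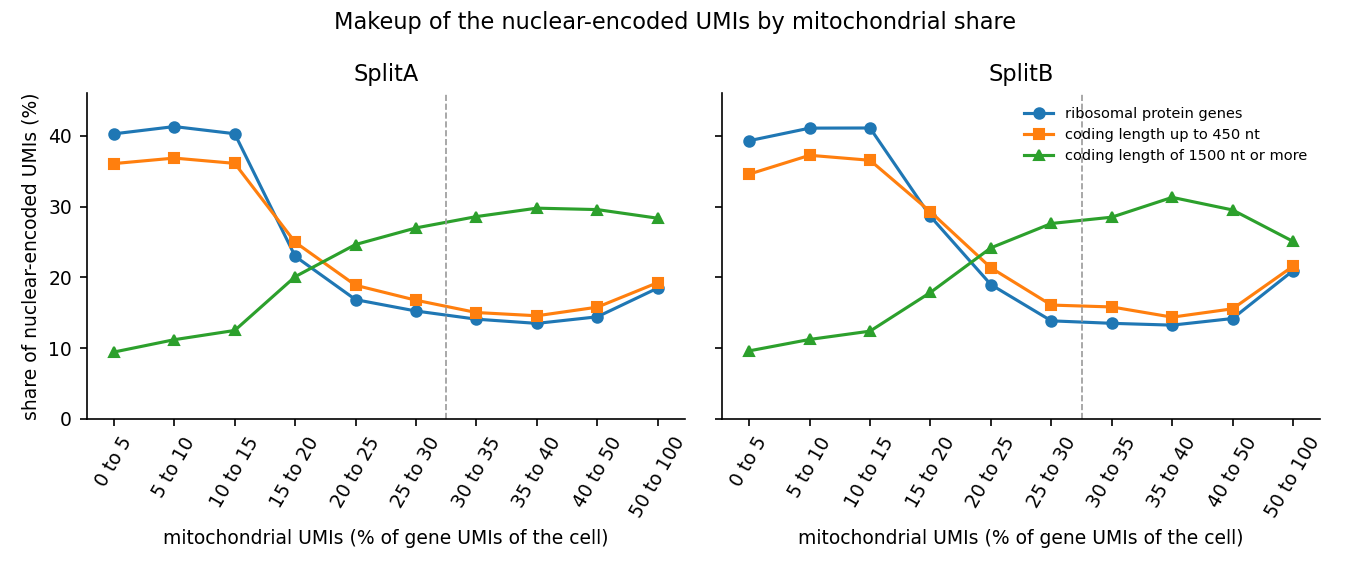
The share of nuclear-encoded UMIs, in percent, held by ribosomal protein genes (circles), genes with up to 450 coding bases (squares) and genes with 1500 or more (triangles), in cells binned by mitochondrial share, 1 panel per flask; the dashed line marks 30%. Ribosomal protein genes went from about 41% at 5% to 10% mitochondrial share to about 14% at 30% to 50%, the long group went the opposite way, and most of the change lay between 15% and 25%.

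Single genes were followed through the same bins. HSPA5 was at 50.9 CPM in either flask at 5% to 10% mitochondrial share, 260 and 330 CPM at 15% to 20%, and 1241 and 1037 CPM at 30% to 35%. TUBA1A, an alpha-tubulin, was at 530 and 493, 3835 and 2507, and 5965 and 6009 CPM in these bins. Its close relative TUBA1B differs little in sequence, and reads may have been shared between them. RPL39 went from 8120 and 8218 CPM to 3644 and 4941 and then to 1620 and 1500. Each of these genes thus had an intermediate level in the sparse region between the classes, summed over the cells of that bin. Whether single cells held that level or the bin mixed cells like those of either class was not tested. EEF1A1, a translation elongation factor, moved little, at 6716 and 6555 CPM, 5466 and 6221, and 5827 and 5208 in the same bins. H4C3 was at 2662 and 2907 CPM, 191 and 650, and 172 and 157, so that in SplitA its level at 15% to 20% was close to that at 30% to 35%. At 25% to 30%, just below the limit, HSPA5 was at 897 and 1117 CPM, TUBA1A at 6114 and 6598 and RPL39 at 1820 and 1805. Most of the change in these genes thus lay below the limit of 30%. Above 50% HSPA5 was at 785 and 351 CPM, from 5 and 6 UMIs.

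Of 22 heat shock and chaperonin genes, mostly cytosolic but with some mitochondrial members, 18 were higher and 1 lower (7 and 1 of 11 on the floor of comparison cells, 18 and 1 of 22 centred). The median log2 ratio of the 11 genes on the floor of comparison cells was 1.95 in SplitA and 2.22 in SplitB, against -0.41 and -0.37 for all genes on that floor. HSP90AA1, the inducible cytosolic Hsp90, was at 5320 and 4815 CPM in mito-high cells against 672 and 684. CCT5, a chaperonin subunit that reached the floor only through the mito-high cells, was at 1020 and 772 against 70.6 and 76.1. HSPE1, the short mitochondrial co-chaperonin, was the lower one, at 209 and 251 CPM against 504 and 529. HSPB1, a small heat shock protein, was at 853 and 691 CPM against 802 and 803 and was not called.

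All 11 glycolysis enzymes compared were higher (7 of 7 on the floor of comparison cells, 8 of 11 centred). GAPDH was at 5822 and 5073 CPM in mito-high cells against 2359 and 2511, and LDHB at 1909 and 1778 against 467 and 461. PGK1, which reached the floor only through the mito-high cells, was at 994 and 919 against 83.6 and 88.2. Of 26 proteasome subunits 23 were higher and none lower (10 of 13 on the floor of comparison cells, 18 of 26 centred), with PSMA7 at 1486 and 1553 CPM against 447 and 426. On the floor of comparison cells the median log2 ratio was 2.03 and 1.72 for glycolysis and 1.41 and 1.29 for the proteasome.

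Genes for RNA-binding proteins of the nucleus were on the higher side or not called. Of 15 hnRNP genes, whose products package nascent transcripts, 13 were higher (12 of 14 on the floor of comparison cells, 11 of 15 centred), with HNRNPA2B1 at 1962 and 1873 CPM against 646 and 640. Of 14 genes for SR proteins and nuclear speckles 12 were higher (9 of 11, and 9 of 14 centred), with SON at 999 and 919 CPM against 183 and 169. SRSF3 had 314 and 305 CPM against 335 and 318. Neither list held a lower gene.

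Nuclear long non-coding RNAs were higher in share. MALAT1 (GRCh38 chr11:65497640-65508073) was at 45575 and 46855 CPM in mito-high cells against 15098 and 14564, a ratio of 3.02 and 3.22. NEAT1, the scaffold of paraspeckles, was at 1104 and 1074 CPM against 267 and 297, and KCNQ1OT1, an imprinted antisense transcript, at 413 and 305 against 120 and 106. These 3 were the members of a list of 9 that reached the floor, and all 3 were higher on either floor and centred. FTX, below the floor, was at 115 and 162 CPM against 30.7 and 33.3. In contrast, the spliced hosts of small nucleolar RNAs were lower, namely ZFAS1 at 83.7 and 123 CPM against 547 and 536, SNHG8 at 131 and 102 against 367 and 380, and SNHG32 at 110 and 138 against 314 and 305. On the floor of comparison cells 4 of 5 such hosts were lower and none higher, and centred all 3 were lower.

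Several lists held both higher and lower genes. Of 67 nuclear-encoded genes of oxidative phosphorylation, 14 were higher and 23 lower (7 and 23 of 61 on the floor of comparison cells, 10 and 36 of 67 centred). The median coding length on the floor of comparison cells was 528 bases for the higher and 243 for the lower ones. ATP5F1E, the 156-base coding sequence of the epsilon subunit of ATP synthase, was at 633 and 730 CPM in mito-high cells against 3010 and 3142, and UQCRH at 518 and 709 against 1892 and 1910. Of 32 genes for mitochondrial ribosomes and import, 6 were higher and 11 lower (3 and 15 of 32 on the floor of comparison cells, 2 and 18 of 32 centred), with TOMM7 at 183 and 198 CPM against 761 and 782. In both lists the lower genes outnumbered the higher ones under each of these counts. Over all genes this was also so on the floor of comparison cells (22.5% higher, 37.8% lower) and centred (33.6% and 35.6%). It was not so on the main floor (46.2% and 23.8%). On the floor of comparison cells, the share of lower genes of oxidative phosphorylation was near that of all genes. The median coding length of that list on the main floor was 390 bases, against 840 for all genes. After subtraction of the median of genes of similar coding length, its median log2 ratio there was 0.42 in SplitA and 0.37 in SplitB.

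Of 27 genes of the endoplasmic reticulum, 14 were higher and 4 lower (5 and 4 of 19 on the floor of comparison cells, 13 and 6 of 27 centred). On both floors the share of higher genes was near that of all genes. The chaperones HSPA5, PDIA3, PDIA4, PDIA6 and HSP90B1 were higher, the first 3 of them below 100 CPM in comparison cells, while OST4, a subunit of the oligosaccharyltransferase with 114 coding bases, was at 303 and 365 CPM against 1554 and 1584, and SEC61G, the small subunit of the translocon, at 282 and 224 against 697 and 707. Among 23 secreted proteins 17 were higher and 1 lower (8 and 1 of 13 on the floor of comparison cells, 15 and 2 of 23 centred), the lower being GAL, the precursor of a neuropeptide, at 439 and 823 CPM against 1345 and 1470. CPE, a carboxypeptidase of secretory granules, was at 434 and 479 CPM against 46.4 and 44.8, and reached the floor only through the mito-high cells. Among 22 membrane proteins of the cell surface 17 were higher and 1 lower (5 and 1 of 9 on the floor of comparison cells, 16 and 3 of 22 centred), with DLK1 at 6204 and 6030 CPM against 2797 and 2875.

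In the cytoskeleton list 13 of 29 genes were higher and 3 lower (10 and 3 of 25 on the floor of comparison cells, 9 and 7 of 29 centred). TUBA1A was at 5864 and 5656 CPM in mito-high cells against 530 and 515, and ACTB, cytoplasmic actin, at 5341 and 4660 against 1051 and 1061. The actin-binding thymosins, with 135 coding bases each, were lower, TMSB10 at 1418 and 1667 CPM against 4563 and 4608 and TMSB4X at 220 and 239 against 1144 and 1203. PFN1 had 1554 and 1556 CPM against 1886 and 1948. TUBA1A and ACTB were thus on the opposite side of 0 from the thymosins, while 13 genes of the list were not called in either direction.

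The lists of translation factors and of ribosomal protein genes had median ratios below those of genes of similar coding length. Of 24 translation factors 5 were higher and 6 lower on either floor, and 5 and 11 centred, and the median log2 ratio was -0.12 and -0.05. Relative to the median of genes of similar coding length the translation factors were at -0.79 and -0.82, and the ribosomal protein genes -1.15 and -1.10. EEF1A1, the elongation factor that brings aminoacyl-tRNA to the ribosome, was at 5509 and 5339 CPM in mito-high cells against 6694 and 6598, although its coding sequence has 1389 bases. TPT1, the translationally controlled tumour protein, was at 659 and 724 CPM against 2906 and 2933. EIF4A1, the helicase of cap-dependent initiation, was the highest of the list and an exception to that order, at 1386 and 1275 against 215 and 212. Other lists also departed from the median of genes of similar coding length, on the main floor. Replication-dependent and linker histones were at -1.58 and -1.90, from 2 genes, and neuroblast identity at -0.34 and -0.23. Among those above it were proteasome subunits (0.82 and 0.85), glycolysis enzymes (0.85 and 0.67), the endoplasmic reticulum list (0.80 and 0.60) and heat shock and chaperonin genes (0.62 and 0.59).

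Among genes of chromatin proteins, both genes of replication-dependent and linker histones that reached the floor were lower (2 of 2 on the floor of comparison cells, and centred), among them H4C3 as given above. Of 14 genes for histone variants, HMG proteins and prothymosin 7 were lower, 1 was higher and 6 were not called (7 lower and 1 higher of 15 on the floor of comparison cells, 11 and 1 of 14 centred). PTMA, prothymosin alpha, was at 1193 and 1248 CPM against 2482 and 2573. The higher one was MACROH2A1, at 413 and 452 CPM against 175 and 179, with a coding sequence of 1119 bases where those of H4C3 and PTMA have 312 and 333.

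**Figure D4:**
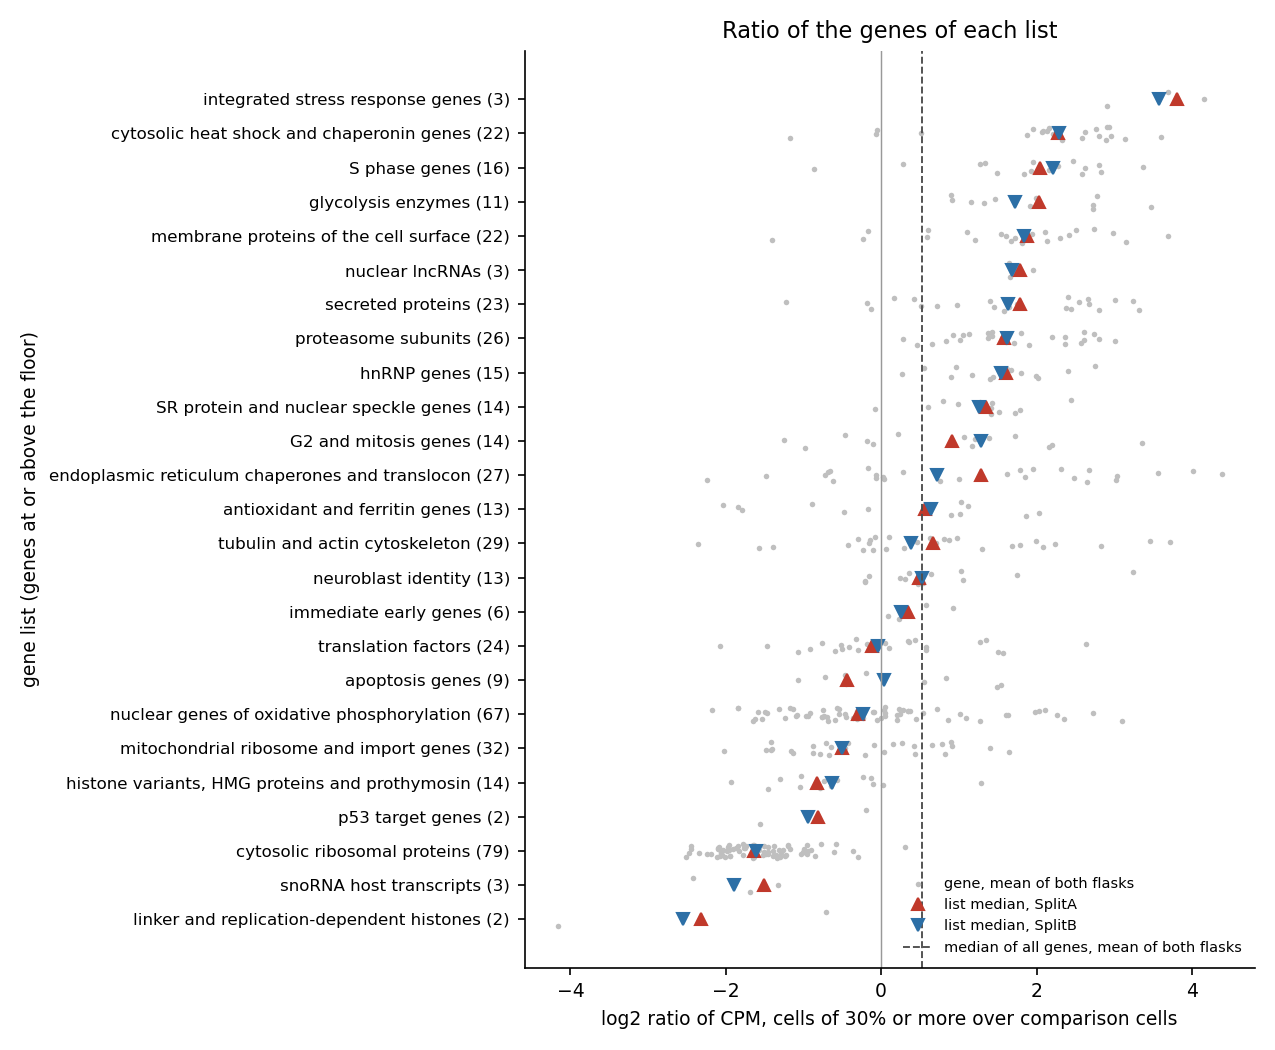
Log2 ratio of CPM, mito-high over comparison cells, for the genes of each list (grey points, mean of both flasks) and the list medians in SplitA (red triangles) and SplitB (blue triangles), with the number of genes compared in brackets. The dashed line marks the median of all 1498 genes. The lists are drawn on the main floor, which many genes reached only through the mito-high cells; cytosolic ribosomal proteins lie almost wholly to the left of that line, and the genes drawn as cytosolic heat shock and chaperonin genes, some of which are mitochondrial, mostly to the right.

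A higher share need not mean more molecules, so the mean number of UMIs per cell was also compared. The median gene had 0.233 times as many UMIs per mito-high cell as per comparison cell in SplitA and 0.212 times in SplitB. Even so, 62 genes (4.14% of the 1498) had more UMIs per mito-high cell in both flasks, and 18 of them were past 1.5-fold. HSPA5 had 1.13 and 1.12 UMIs per mito-high cell against 0.334 and 0.368, PCOLCE had 2.44 and 2.37 against 0.931 and 0.901, and TUBA1A had 5.81 and 5.45 against 3.30 and 3.33. CHGA had 3.82 and 3.45 against 2.58 and 2.42. None of the 62 has a coding sequence of 450 bases or less, where 22.4% of the 1482 protein-coding genes compared do, and 36 have 1500 bases or more (58.1%, against 25.4%). Of the 62 genes only 10 reached 100 CPM in comparison cells, and 5 of these have 1500 bases or more, against 12.5% of the protein-coding genes on that floor. These are means over cells and rest on low counts per cell, and a difference in capture between the classes was not tested.

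The genes detected per cell were compared at equal depth by thinning each cell to 500 nuclear-encoded UMIs, which left out 15 mito-high cells of SplitA and 51 of SplitB. At that depth a mito-high cell had 397 ± 18.3 genes (mean and SD over 178 cells) in SplitA and 398 ± 19.5 (296 cells) in SplitB, against 321 ± 24.4 and 320 ± 26.0 in comparison cells. Without thinning the medians lay in the opposite order, at 685 and 644 genes in the same mito-high cells against 1886 and 1933. Comparison cells were chosen with at least 1000 genes and mito-high cells without such a minimum, so that order is given as a description. At equal depth the RNA of the mito-high cells was thus spread over more genes, beside the smaller share of the ribosomal protein genes.

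The split of the mitochondrial UMIs over the 13 genes was not used to choose the cells, although their sum was. MT-ND3 (GRCh38 chrM:10059-10404) made up 5.90% of the mitochondrial UMIs of mito-high cells in SplitA (exact binomial interval 5.76% to 6.04%) and 5.79% in SplitB (5.69% to 5.89%), against 4.18% and 4.14% in comparison cells. MT-ND1 was at 4.85% and 4.94% against 6.47% and 6.30%, and MT-ND2 at 10.3% and 10.4% against 8.87% and 8.81%. MT-CO2 was at 18.9% and 18.5% against 20.2% in either flask, MT-CO3 at 18.5% and 18.8% against 17.4%, and MT-CO1 at 13.76% and 13.96% against 13.3%. MT-ND4, MT-CYB, MT-ATP6, MT-ND5 and MT-ND4L had shares 0.864 to 0.955 times those of the comparison cells.

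Among the rare genes, MT-ND6, which lies on the other strand, was at 0.166% and 0.175% of the mitochondrial UMIs of mito-high cells, from 190 and 380 UMIs, against 0.119% and 0.0984%. MT-ATP8 had only 7 and 15 UMIs in mito-high cells, or 0.453 and 0.450 times its share in comparison cells. MT-ND3, MT-ATP8 and MT-ND4L are the 3 shortest of the 13 genes. MT-ND3 had a larger share in mito-high cells, and MT-ATP8 a smaller one, with exact intervals that overlap in SplitA. MT-ND4L was at 0.212% and 0.217% against 0.245% and 0.231%, with intervals that overlap in both flasks. Reads of MT-ATP8 and MT-ATP6, and of MT-ND4L and MT-ND4, can overlap, and their counts are uncertain.

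**Figure D5:**
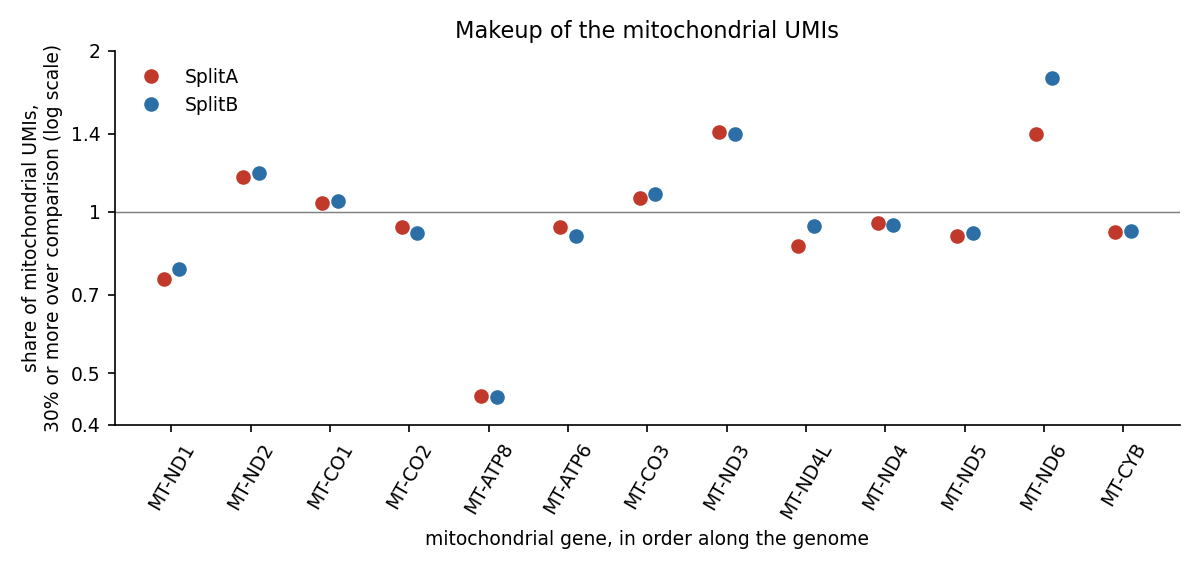
The share of each mitochondrial gene in the mitochondrial UMIs of mito-high cells divided by its share in comparison cells, on a logarithmic axis, for SplitA (red) and SplitB (blue), with the genes in order along the mitochondrial genome. MT-ND3, MT-ND2 and MT-ND6 lie above 1 and MT-ND1 and MT-ATP8 below it in both flasks.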

How the data were processed

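The authors mapped the reads of both libraries to GRCh38 and counted them per cell and gene; the submitters' processing notes name Cell Ranger 4.0.0 and STAR 2.7, and the annotation release is not given in the sources used here. The deposited values are UMI counts without normalization of 33538 gene identifiers plus the hashtags in each of 2879 cells, and 0 columns were left unused. Intronic reads, free RNA and raw droplets were not analysed here.

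Cells were assigned with the hashtag limits of the study (185 counts, ratio of 3). UMIs were summed by flask and class and scaled to CPM of nuclear-encoded UMIs. Intervals (95%, exact Poisson or binomial) cover counting error only. There was no test, since cells are not replicates. A sum of 0 was set to 3 counts, and none occurred among the genes compared. The 28 gene lists were linked by symbol, known for 33113 identifiers. Transcript features came from canonical transcripts of GENCODE release 44.

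Genes named are the mitochondrial genes and MALAT1, the 12 highest and 12 lowest by the smaller log2 ratio of the flasks, and in each list the 3 of highest CPM in comparison cells and those of highest and lowest ratio. Some genes that this rule names are not reported here. TUBA1A, ACTB, PDIA4, PDIA6, FTX, TH and the coding length limits of 450 and 1500 bases were chosen after values were seen. All members and lists were chosen with earlier results of these data known. Scripts used numpy 2.4.6, pandas 2.3.3, matplotlib 3.10.9 and scipy 1.17.1 under Python 3.11.15, and were tested on simulated data. Alternatives concerned the limits of both classes, hashtags, the floor, the fold, the scaling and each flask left out.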

Additional observations from a re-analysis of the deposited data

How the results depend on the processing

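The 692 genes called higher (46.2% of 1498) became 1556 with a floor of 50 CPM and 159 with 300 CPM. They became 255 (22.5% of 1132) with the floor on comparison cells and 1139 with it on mito-high cells. The last pair of floors was chosen after seeing the data. The 356 genes called lower became 706 without ribosomal protein genes in the total, 180 with 300 CPM and 235 at 2-fold. The floors change the number of genes compared, so counts given without a share do not show whether the share called changed. A 2-fold limit is stricter than 1.5-fold and can only lower the count. Ribosomal protein genes held 14.08% and 14.02% of the nuclear-encoded UMIs in mito-high cells and 41.1% in comparison cells. Leaving them out of the total thus lowers the ratio of every gene in a flask by the same factor and raises its CPM.

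With a limit of 40% in place of 30%, 7.36% of cells were mito-high, the median nuclear-encoded UMIs differed 8.95-fold (6.45-fold for the cells as defined, flasks pooled), the own-hashtag ratio was 0.655 (0.69) and the share of MT-ND3 differed by 1.76 percentage points (1.67). Against the comparison cells with the fewest nuclear-encoded UMIs, 1 of 3 equal groups, these were 4.57-fold, 0.857 and 1.502 points, and the genes per thinned cell, comparison minus mito-high, were -70.01 (-77.1). That difference was -36.97 at 300 UMIs and -168.8 at 1000 UMIs. The difference in median log2 ratio between the longest and shortest of 3 equal groups of transcripts (1.82) was 1.59 without ribosomal protein genes in the total, 1.71 as a mean of cells, and 1.74 to 1.77 with either flask left out.

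Signs of 7 list medians turned under some alternative: translation factors to 0.0227 (comparison cells with the fewest UMIs) and 0.0732 (50 CPM), mitochondrial ribosome and import genes to 0.0403 (floor on mito-high cells), the endoplasmic reticulum list to -0.26 (total without ribosomal protein genes) and -0.0601 (floor on comparison cells), immediate early genes to -0.14 (comparison cells with the fewest UMIs), -0.22 (centred) and -0.24 (total without ribosomal protein genes), apoptosis genes to 0.36 (50 CPM) and 0.69 (floor on mito-high cells), antioxidant and ferritin genes to -0.17 (300 CPM, and floor on comparison cells), and neuroblast identity to -0.0500 (centred) and -0.0678 (total without ribosomal protein genes). The apoptosis median was -0.43 in SplitA alone and 0.0353 in SplitB alone. In all, 15 of 552 recomputed directions of list medians and single genes turned, all of them list medians. Spearman's rho with coding length stayed between 0.63 and 0.74 over all alternatives run. Both classes were compared within each flask, so every ratio is already paired by flask, and no test was made of the pairs. Depth limits the rarest genes most, since 100 CPM corresponds to 19.1 UMIs in the mito-high cells of SplitA.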

Other observations

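Of 16 genes of S phase that reached the floor, 14 were higher in mito-high cells and 1 was lower (3 and 1 of 5 on the floor of comparison cells, 14 and 1 of 16 relative to the median ratio of all genes, or centred). MCM7, a subunit of the replicative helicase, was at 1208 and 1203 CPM in mito-high cells of SplitA and SplitB against 117 and 116. Of 14 genes of G2 and mitosis 8 were higher and 2 lower (5 and 2 of 11 on the floor of comparison cells, 6 and 3 of 14 centred). CCNB1, the mitotic cyclin, was at 256 and 323 CPM against 29.1 and 27.1. It reached the floor only through the mito-high cells, so that it had to differ. Its small partners CKS1B and CKS2, with 240 coding bases each, reached the floor in comparison cells. They were at 293 and 233 CPM against 523 and 509 and at 73.2 and 108 CPM against 210 and 212.

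Genes of the integrated stress response, the pathway of ATF4, were mostly below the floor. Of 20 such genes 3 reached it, all of them (ASNS, SLC3A2 and PHGDH) only through the mito-high cells, so that they had to differ. Of 23 immediate early genes 6 reached the floor, 1 was higher and none lower (none of 6 either way on the floor of comparison cells or centred). JUNB, at 120 and 147 CPM in mito-high cells against 70.3 and 69.3, also reached the floor only through the mito-high cells. Of 19 p53 targets 2 reached it, with 1 lower and none higher on either floor and centred. RPS27L, a short ribosomal protein paralog, was lower, at 105 and 62.8 CPM against 238 and 239, while BAX had 105 and 141 against 141 and 137. Of 31 apoptosis genes 9 reached it, with 3 higher and 1 lower (1 and 1 of 6 on the floor of comparison cells, 2 and 4 of 9 centred), and CYCS, cytochrome c, had 235 and 308 CPM against 356 and 384.

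Of 13 antioxidant and ferritin genes compared, 6 were higher and 3 lower (4 and 3 of 11 on the floor of comparison cells), but centred 2 were higher and 6 lower. The ferritin chains were lower, FTH1 at 957 and 1245 CPM in mito-high cells against 3845 and 3737 and FTL at 633 and 661 against 2682 and 2645. PRDX4, the peroxiredoxin of the endoplasmic reticulum, was at 251 and 239 CPM against 60.5 and 59.0, and reached the floor only through the mito-high cells. No metallothionein reached the floor, and the 8 genes summed to 62.8 and 65.8 CPM against 141 and 268. The 11 nuclear transcripts resembling mitochondrial rRNA have no entry in the table.

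Markers of cells that do not belong in the line were at or near 0. The 12 genes summed to 31.4 and 29.9 CPM in mito-high cells against 10.1 and 13.3 in comparison cells. PTPRC, HBB, CD3E, LYZ, GFAP and PECAM1 had no UMI in the mito-high cells of either flask, and the most counted of the list there was LUM, with 3 and 5 UMIs. The part of these few counts in the results was not tested.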
